A study of Homo sapiens with 12 samples.

Results

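The genes described here belong to the hypoxia response and to glycolysis. They were chosen by name, 43 in all, with earlier results of these data known. They are genes of the oxygen-sensing pathway, its classical targets and the enzymes of glucose breakdown. Of them 40 were read by a probe set that carries 1 gene symbol, out of 18417 genes tested. CA9, SLC16A3 and PGAM1 were not analysed here. The probe sets listed for PGAM1 also name PGAM4, and the rule left such probe sets out. The cells were SZ95, an established immortalised line of human sebocytes, the lipid-producing cells of the sebaceous gland, and RNA was read on whole-transcript arrays. All 12 samples were transfected with an siRNA, either a scramble control or one against OLR1, which encodes the oxidised-lipoprotein receptor LOX-1. After 24 h the cells were left untreated or received 25 µg/ml of UV-PAPC, an arachidonate-bearing phosphatidylcholine (PAPC) oxidised with ultraviolet light. The 4 groups were therefore scramble siRNA untreated, scramble siRNA with UV-PAPC, OLR1 siRNA untreated and OLR1 siRNA with UV-PAPC, with 3 arrays each (n = 3 throughout). No untransfected, vehicle-treated or unoxidised-lipid cells are among the samples, the sources used here do not give the length of exposure, and all samples are of 1 cell line.

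Cells sense oxygen through the hypoxia-inducible factors. Prolyl hydroxylases (EGLN1, EGLN3) mark the alpha subunits HIF-1alpha (gene HIF1A) and HIF-2alpha (gene EPAS1) for destruction by the VHL ubiquitin ligase when oxygen is present. This control acts on the proteins, which arrays do not measure. When oxygen is short, or the hydroxylases are blocked, the stabilised factors bind short DNA elements and raise genes for glucose uptake, glycolysis, blood vessel growth, collagen modification and mitophagy. Several of these genes also answer to other stress pathways, so a change in a single target does not identify the pathway that acted.

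The values are log2 signals, and a difference of 1 is a doubling or halving. Differences are log2 fold changes from a limma fit over all genes, with the standard error (SE) or 95% confidence interval (CI). "Rose" and "fell" are used where the Benjamini-Hochberg adjusted p over all genes was under 0.05. RNA was measured per sample and not per cell, so a change in the cells' RNA and a change in the mix of cells cannot be told apart.

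Short stretches before the start of 9 of these genes are shown because they hold the core letters of the hypoxia response element, and because genes on both sides of the results carry them. The sequences are from RefSeq (GRCh38.p14), 60 bases each, written 5′ to 3′ on the gene's strand, with each ACGTG or GCGTG on either strand in capitals. ADM, P4HA1 and BNIP3 rose with UV-PAPC in at least 1 comparison, BHLHE40 and HK2 fell with it, EPAS1 fell with OLR1 siRNA, and LDHA, PGK1 and ENO1 passed the threshold in no comparison.
ADM (chr11:10304945-10305004, + strand): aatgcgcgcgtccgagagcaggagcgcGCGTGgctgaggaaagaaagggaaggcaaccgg
P4HA1 (chr10:73096920-73096979, - strand): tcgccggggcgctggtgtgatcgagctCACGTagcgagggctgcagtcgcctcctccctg
BNIP3 (chr10:131981995-131982054, - strand): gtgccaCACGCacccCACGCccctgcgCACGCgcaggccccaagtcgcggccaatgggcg
BHLHE40 (chr3:4979261-4979320, + strand): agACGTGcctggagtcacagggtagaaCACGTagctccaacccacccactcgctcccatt
HK2 (chr2:74834052-74834111, + strand): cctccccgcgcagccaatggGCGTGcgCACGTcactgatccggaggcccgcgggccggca
EPAS1 (chr2:46297263-46297322, + strand): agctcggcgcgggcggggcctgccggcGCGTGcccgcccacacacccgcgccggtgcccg
LDHA (chr11:18394463-18394522, + strand): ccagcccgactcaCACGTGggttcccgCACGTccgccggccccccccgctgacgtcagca
PGK1 (chrX:78104038-78104097, + strand): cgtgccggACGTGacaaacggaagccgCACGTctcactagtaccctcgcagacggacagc
ENO1 (chr1:8878726-8878785, - strand): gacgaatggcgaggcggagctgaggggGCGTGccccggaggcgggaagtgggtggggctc

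RefSeq promoter windows (250 bases before to 50 after a start) were held for 35 of the 40 genes, 58 windows in all. ACGTG or GCGTG, searched on both strands, occurred in 45 of these 58 windows (77.6%) and in 48.4% of all 35116 windows. The gene windows also had a median of 30 CG pairs against 14 in all windows, and the motif itself contains a CG pair. Of the 14 genes with a window that passed the threshold in at least 1 comparison, 13 held the core, and of the 21 that passed in none, 20 did. Because 33 of the 35 genes held the core, its presence could not separate the genes that changed from those that did not. ACGTG alone was held by 7 of the 14 and by 14 of the 21, and by 24.9% of all genes with a window. The palindrome CACGTG, an E-box in which every match also contains the core, was in 9 of 58 windows against 7.26% of all. The antioxidant response element core TGACNNNGC, on both strands, was in 7 of 58 windows against 13.3% of all. A match is a stretch of letters and not evidence of binding.

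UV-PAPC changed a few secreted, matrix and regulatory genes of this group strongly and lowered the RNA of HK2, a hexokinase of the first step of glycolysis. HK1, the other hexokinase of the 40, did not pass with UV-PAPC. None of the 11 genes from GPI to PDK1 passed the threshold in the main fit, a count near the share of all genes called. With scramble siRNA 3 genes rose (PGF, P4HA2 and ADM) and 4 fell (BHLHE40, STC1, HK2 and SLC2A1), so that 7 of 40 passed the threshold against 7.31% of all genes tested (2.67% rising and 4.64% falling). With OLR1 siRNA 8 rose and 2 fell, 10 of 40 against 6.71% of all genes (3.46% rising and 3.25% falling). The 8 were PGF, ADM, P4HA2, SLC2A3, MXI1, P4HA1, NDRG1 and BNIP3, several of them close to the threshold. The 2 sets share 5 genes, 71.4% of the first and 50% of the second, all with the same direction: PGF, ADM and P4HA2 up, HK2 and BHLHE40 down.

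The median log2 fold change of the 40 was -0.003 with scramble siRNA (all genes -0.002) and 0.045 with OLR1 siRNA (all genes -0.013). The median size regardless of sign was 0.13 and 0.10, against 0.08 over all genes in both. The UV-PAPC arrays lay entirely above or below the untreated ones in 15 of 40 genes with scramble siRNA, 7 higher and 8 lower (24.1% of all genes, 10.1% higher and 14% lower). With OLR1 siRNA this held for 19 genes, 15 higher and 4 lower (23.7% of all genes, 10.9% higher and 12.8% lower). Averaged over both siRNAs, 9 rose and 4 fell, against 14% of all genes called (5.95% rising and 8.03% falling). The arrays were apart in 1 direction under both siRNAs in 7 genes that were higher and 3 that were lower (10.8% of all genes, 4.24% higher and 6.56% lower).

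**Figure D1:**
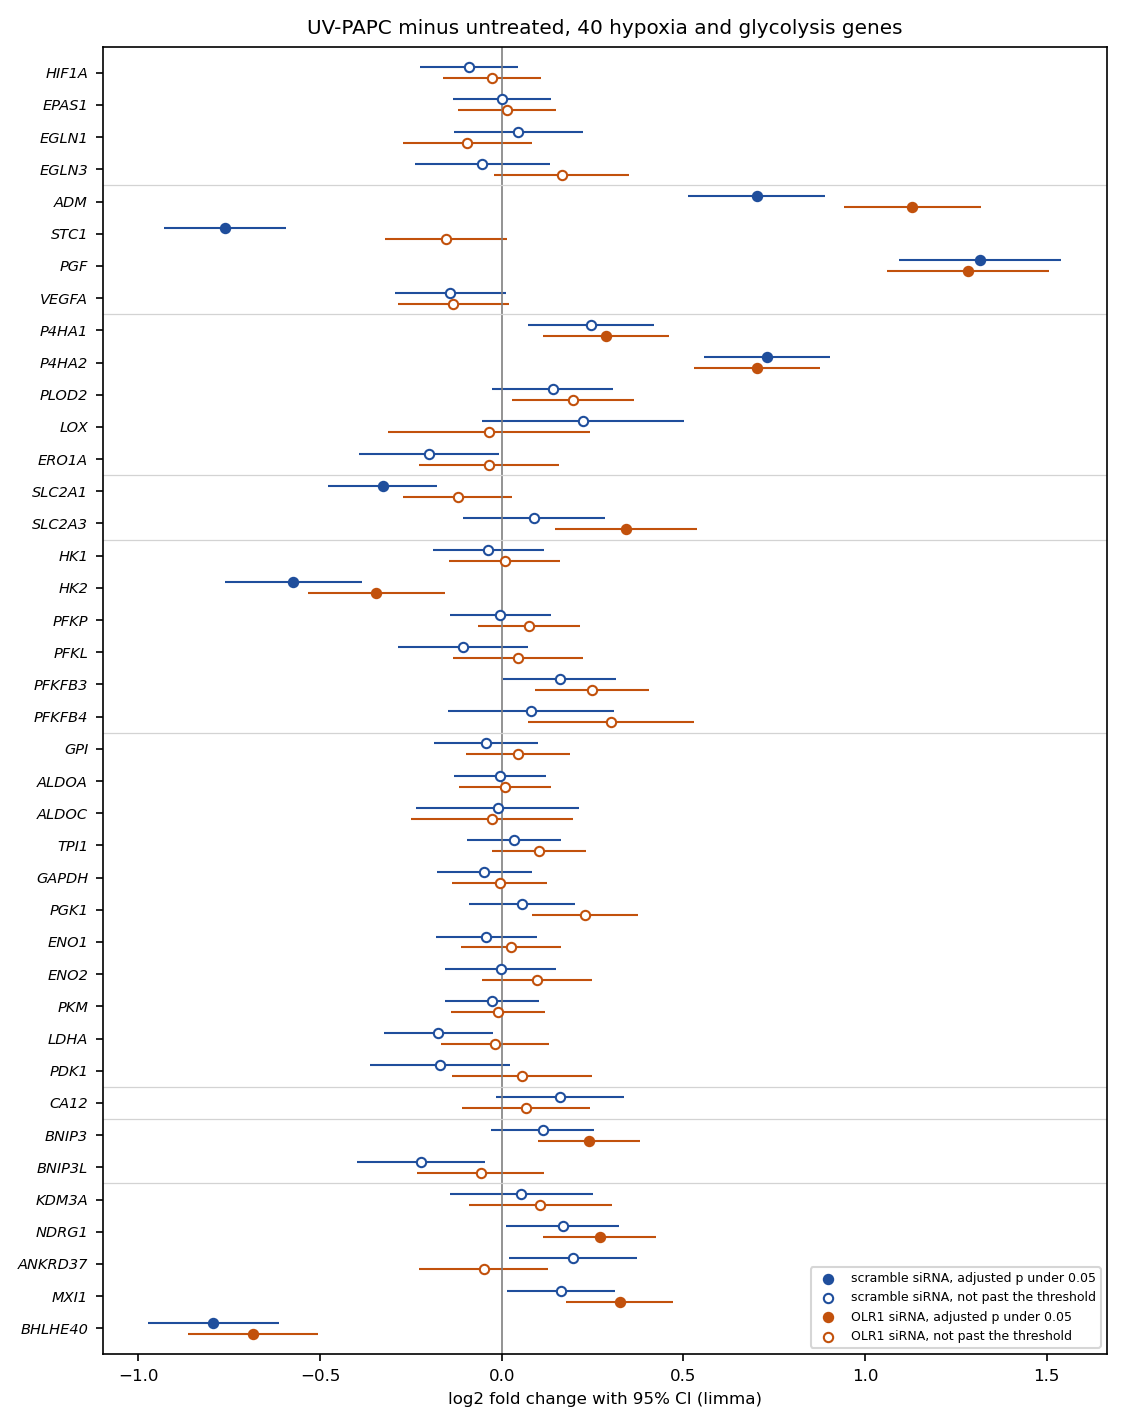
Log2 fold change of UV-PAPC over untreated for 40 genes, ordered by role, with the 95% CI of the limma fit; blue is scramble siRNA, orange OLR1 siRNA, and filled points had an adjusted p under 0.05. PGF, ADM and P4HA2 stand to the right under both siRNAs and BHLHE40 and HK2 to the left. The genes from GPI to PDK1 lie between -0.17 (LDHA, scramble siRNA) and 0.23 (PGK1, OLR1 siRNA).

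OLR1 siRNA lowered the HIF-2alpha gene EPAS1, 4 secreted factors and several other members in untreated cells. In untreated cells 9 of the 40 genes fell and 0 rose, against 9.71% of all genes called (4.42% falling and 5.29% rising). These were STC1, EPAS1, ADM, SLC2A3, LOX, PGF, VEGFA, HK1 and HIF1A. Among UV-PAPC-treated cells 5 were lower with OLR1 siRNA (STC1, LOX, EPAS1, PGF and VEGFA) and 2 higher (MXI1 and PFKFB3), against 12.5% of all genes called (7.94% rising and 4.56% falling).

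All 5 genes that were lower in treated cells were also among the 9 lower in untreated cells. The median over the 40 was -0.07 in untreated cells (all genes -0.001) and 0.009 in treated cells (all genes -0.01). In untreated cells the siRNA groups were apart in 17 of 40 genes, 3 higher and 14 lower (28.7% of all genes, 15% higher and 13.7% lower). With UV-PAPC they were apart in 18, 7 higher and 11 lower (30.8% of all genes, 16.6% higher and 14.1% lower). OLR1 itself was lower on every OLR1 siRNA array, 2.28-fold in untreated cells and 2.64-fold with UV-PAPC, as a check of the labels. It was dim, at 5.35 to 6.19 on scramble arrays and 4.33 to 4.66 on OLR1 siRNA arrays. Background may therefore limit the fold seen.

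**Figure D2:**
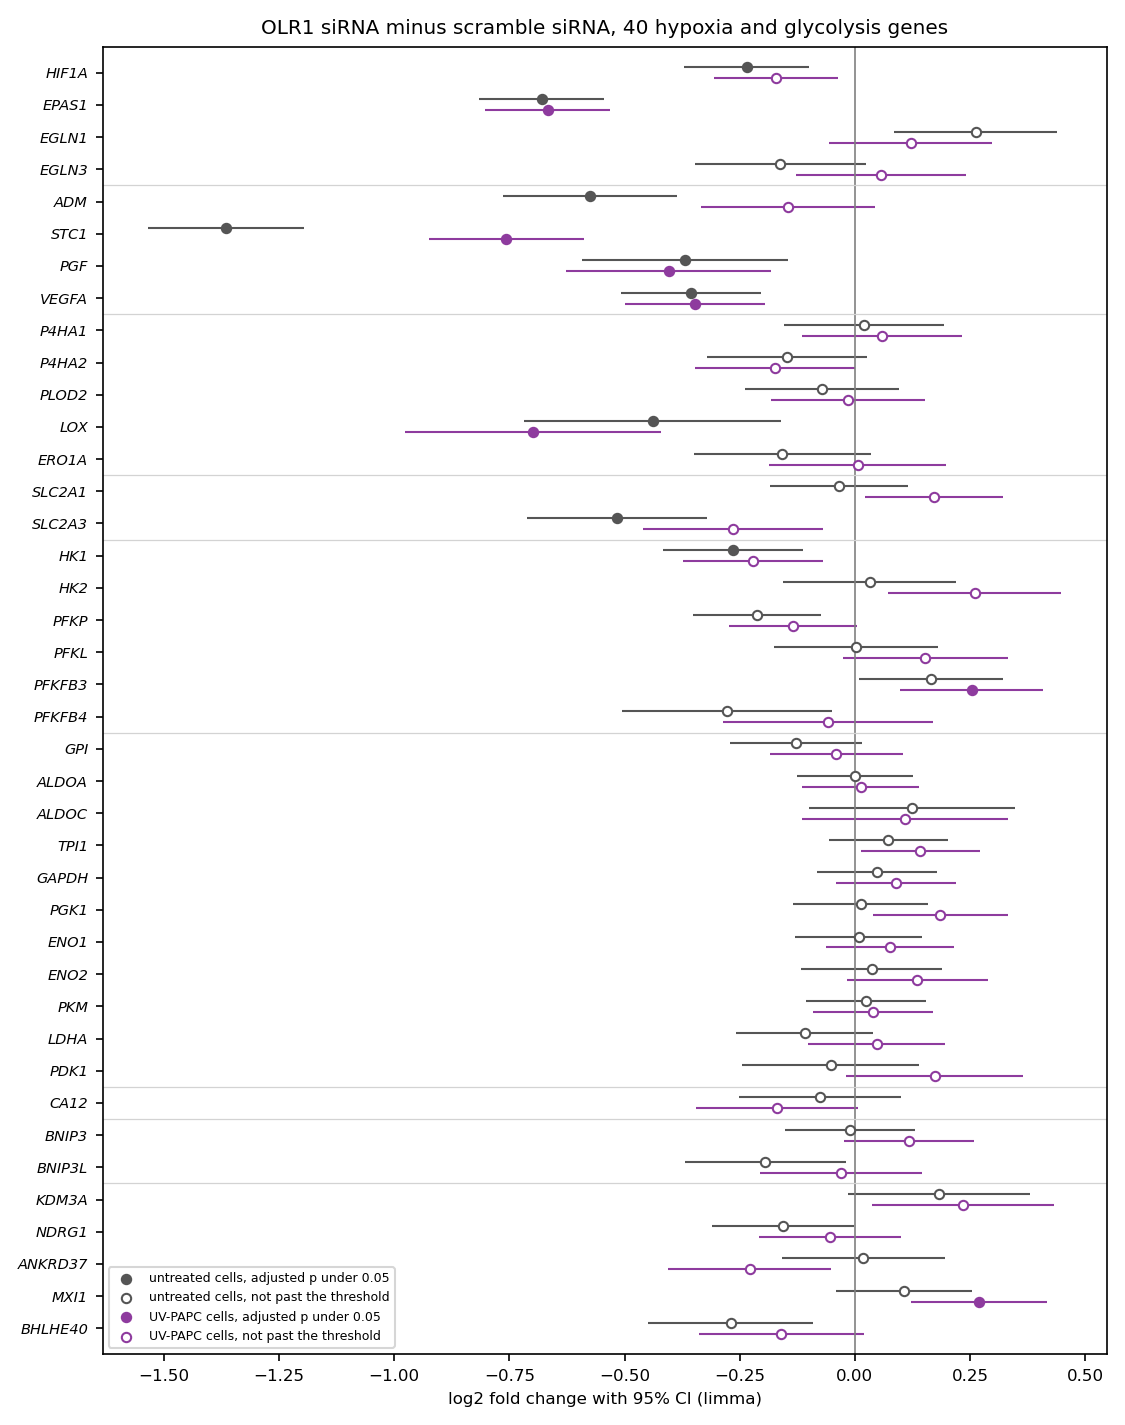
Log2 fold change of OLR1 siRNA over scramble siRNA for the same 40 genes with the 95% CI; grey is untreated cells, purple UV-PAPC cells, filled points had an adjusted p under 0.05. STC1 lies farthest to the left in both conditions, and EPAS1, VEGFA, PGF and LOX are left of 0 with filled points in both.

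The HIF subunits came first in this ordering. EPAS1, the HIF-2alpha subunit, had log2 signals of 9.74, 9.73 and 9.81 on the scramble untreated arrays and 9.77, 9.80 and 9.71 with UV-PAPC. On the OLR1 siRNA arrays it had 9.06, 9.03 and 9.15 untreated and 9.14, 9.07 and 9.06 with UV-PAPC. Every OLR1 siRNA array was below every scramble array, and the treated and untreated arrays of each siRNA overlapped. EPAS1 fell 1.60-fold with OLR1 siRNA in untreated cells (log2 fold change -0.68, SE 0.06, limma adjusted p = 5.78e-06, rank 43 by p of all genes) and 1.59-fold with UV-PAPC (-0.67, SE 0.06, adjusted p = 1.02e-05). Its UV-PAPC effect was 0.01 (95% CI -0.12 to 0.15) with OLR1 siRNA and 0.0006 (95% CI -0.13 to 0.14) with scramble siRNA.

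HIF1A, the HIF-1alpha subunit, had 10.45, 10.39 and 10.31 on scramble untreated arrays and 10.14, 10.13 and 10.16 on OLR1 siRNA untreated arrays. With UV-PAPC it had 10.29, 10.32 and 10.26 with scramble and 10.14, 10.17 and 10.05 with OLR1 siRNA. It fell 1.18-fold with OLR1 siRNA in untreated cells (-0.24, SE 0.06, adjusted p = 0.0276). In treated cells the difference was -0.17 (SE 0.06, adjusted p = 0.0904), with the groups again apart. With arrays centred on their medians the call in untreated cells was lost (-0.20, adjusted p = 0.0862), while the difference in treated cells passed after cyclic loess (-0.26, adjusted p = 0.011) and repeated quantile normalization (-0.235, adjusted p = 0.0174). UV-PAPC gave HIF1A values of -0.09 and -0.03 under scramble and OLR1 siRNA, neither past the threshold.

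The oxygen-sensing hydroxylases EGLN1 and EGLN3, themselves HIF targets, passed in no comparison. EGLN1 was at 0.26 (SE 0.08, adjusted p = 0.0603) with OLR1 siRNA in untreated cells, and its UV-PAPC effects were 0.05 and -0.10. A separate list held 13 other HIF pathway regulators, 12 of them measured, and was chosen with earlier results of these data known. Of these VHL, which recognises hydroxylated HIF, rose with OLR1 siRNA in untreated (0.30, SE 0.07, adjusted p = 0.00905) and treated cells (0.30, SE 0.07, adjusted p = 0.00747). The other 11 passed in neither, and 0 of 12 passed for UV-PAPC under either siRNA. In the UV-PAPC effect averaged over both siRNAs 1 of the 12, CUL2, fell (-0.20, SE 0.06, adjusted p = 0.0445), where 14% of all genes were called. The shares of all genes called were 9.71% and 12.5% for OLR1 siRNA and 7.31% and 6.71% for UV-PAPC.

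**Figure D3:**
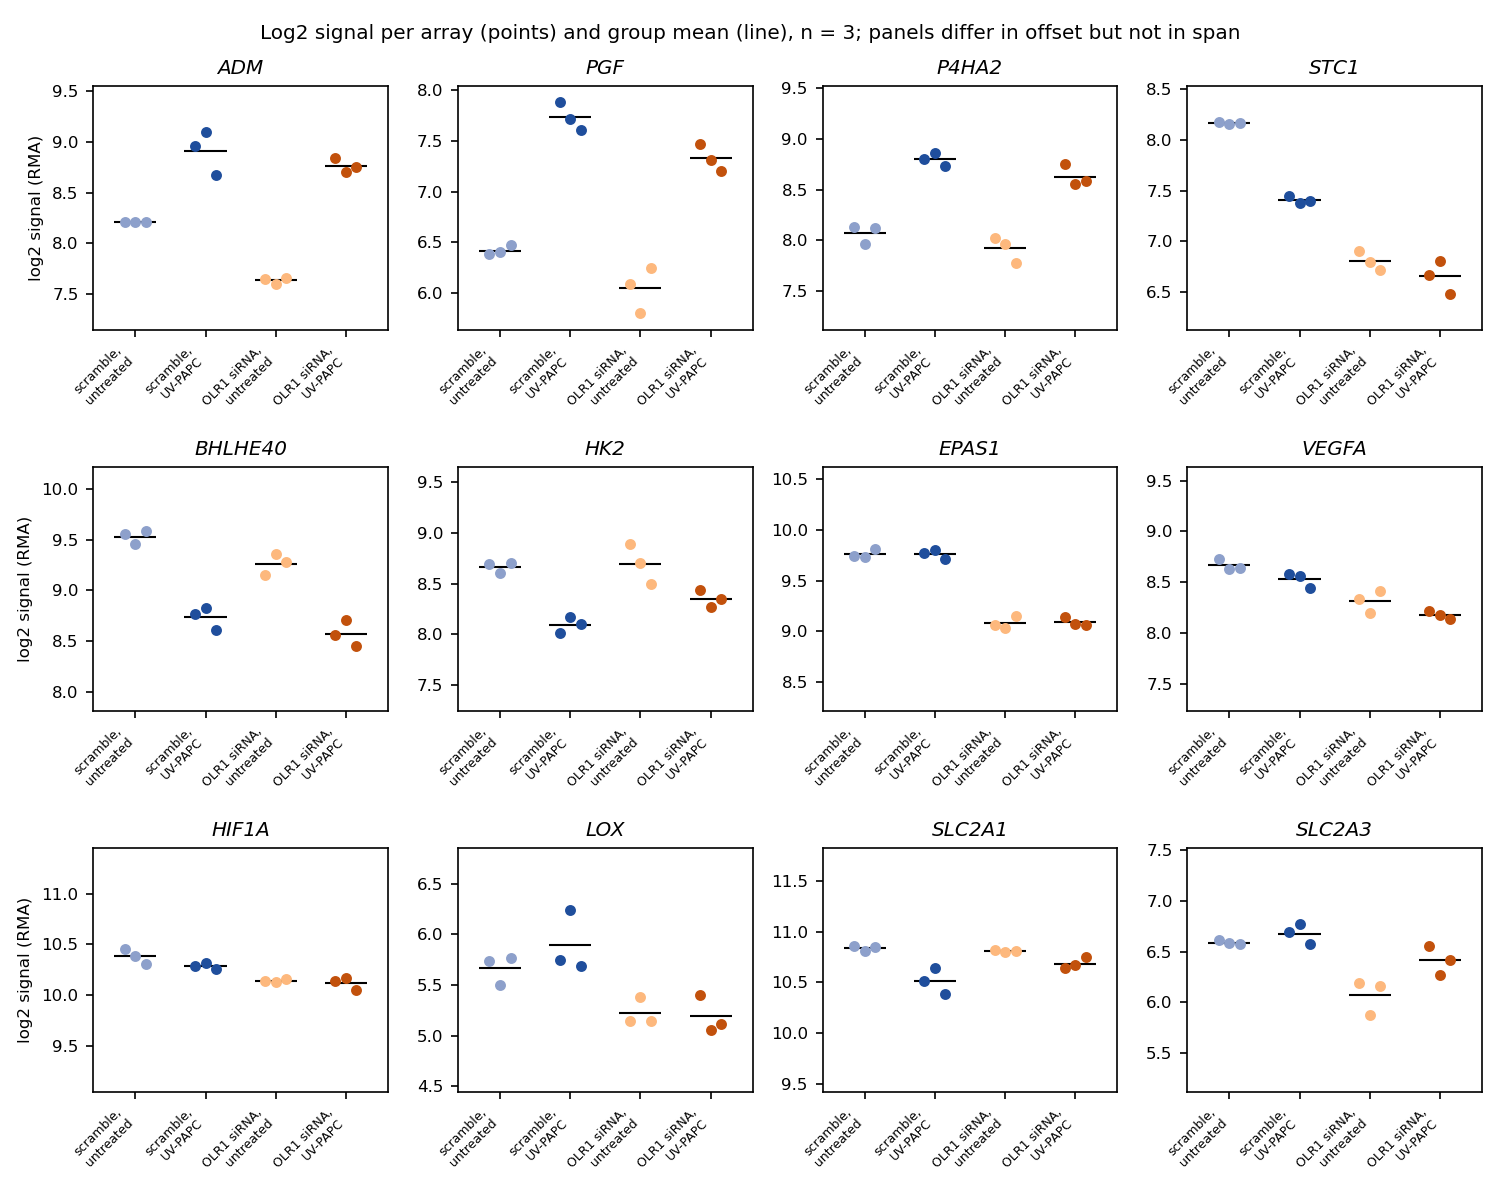
Log2 signal of 12 genes on each of the 12 arrays; points are arrays, lines group means, and all panels cover the same span on the y axis. ADM and PGF separate treated from untreated cells, EPAS1 separates the siRNAs, and STC1 is highest in the scramble untreated group.

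The secreted factors held the largest change of the 40 in each of the UV-PAPC and OLR1 siRNA comparisons. PGF, a placental growth factor of the VEGF family, had 6.38, 6.40 and 6.47 on scramble untreated arrays and 7.88, 7.71 and 7.61 with UV-PAPC. On the OLR1 siRNA arrays it had 6.09, 5.80 and 6.25 untreated and 7.47, 7.31 and 7.20 with UV-PAPC. Treated arrays were above untreated arrays under both siRNAs, with no overlap. PGF rose 2.49-fold with scramble siRNA (1.32, SE 0.11, adjusted p = 9.6e-07) and 2.43-fold with OLR1 siRNA (1.28, SE 0.11, adjusted p = 1.16e-06). OLR1 siRNA lowered it by a smaller amount, -0.37 in untreated (adjusted p = 0.036) and -0.40 in treated cells (adjusted p = 0.0194).

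ADM encodes adrenomedullin, a vasodilator peptide hormone. It read 8.21 on each of the scramble untreated arrays and 8.96, 9.10 and 8.67 with UV-PAPC. On the OLR1 siRNA arrays it read 7.65, 7.60 and 7.66 untreated and 8.84, 8.70 and 8.75 with UV-PAPC. The groups were apart for treatment under both siRNAs, and for siRNA in untreated cells, whereas in treated cells the siRNA groups overlapped. It rose 1.63-fold with scramble siRNA (0.70, SE 0.09, adjusted p = 0.00011) and 2.19-fold with OLR1 siRNA (1.13, SE 0.09, adjusted p = 7.15e-07). With OLR1 siRNA it fell 1.49-fold in untreated cells (-0.57, SE 0.09, adjusted p = 0.000597), and with UV-PAPC the difference was -0.15 (SE 0.09, adjusted p = 0.306). The rise under OLR1 siRNA and the fall in untreated cells both use the OLR1 siRNA untreated arrays, the lowest group for ADM.

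STC1, the secreted glycoprotein stanniocalcin-1, went the other way. Its signals were 8.18, 8.16 and 8.17 on scramble untreated arrays and 7.45, 7.38 and 7.40 with UV-PAPC. With OLR1 siRNA they were 6.90, 6.80 and 6.72 untreated and 6.67, 6.81 and 6.48 with UV-PAPC. The scramble groups were apart from each other and from both OLR1 siRNA groups, which overlapped. STC1 fell 1.70-fold with UV-PAPC under scramble siRNA (-0.76, SE 0.08, adjusted p = 1.73e-05), and under OLR1 siRNA its difference was -0.15 (SE 0.08, adjusted p = 0.331). OLR1 siRNA lowered it 2.58-fold in untreated cells (-1.36, SE 0.08, adjusted p = 7.07e-08), rank 3 by p of all genes in that comparison, and 1.69-fold with UV-PAPC (-0.76, SE 0.08, adjusted p = 2.4e-05). The effects of UV-PAPC under scramble siRNA and of OLR1 siRNA in untreated cells share the scramble untreated arrays.

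VEGFA, the main vascular growth factor and a textbook HIF target, had 8.73, 8.63 and 8.64 on scramble untreated arrays and 8.58, 8.56 and 8.44 with UV-PAPC. Under OLR1 siRNA its signals were 8.33, 8.20 and 8.41 untreated and 8.22, 8.18 and 8.14 with UV-PAPC. Every OLR1 siRNA array was below every scramble array of the same treatment. It fell 1.28-fold with OLR1 siRNA in untreated cells (-0.36, SE 0.07, adjusted p = 0.00463) and 1.27-fold in treated cells (-0.35, SE 0.07, adjusted p = 0.00543). Its UV-PAPC effects of -0.14 (95% CI -0.29 to 0.01) and -0.13 (95% CI -0.29 to 0.02) did not pass.

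Among the collagen-modifying enzymes, P4HA2, an alpha subunit of collagen prolyl 4-hydroxylase, had 8.13, 7.96 and 8.12 on scramble untreated arrays and 8.80, 8.86 and 8.73 with UV-PAPC. The OLR1 siRNA arrays read 8.02, 7.96 and 7.78 untreated and 8.75, 8.55 and 8.58 with UV-PAPC. Treated arrays lay above untreated arrays throughout. P4HA2 rose 1.66-fold with scramble siRNA (0.73, SE 0.08, adjusted p = 3.44e-05) and 1.63-fold with OLR1 siRNA (0.70, SE 0.08, adjusted p = 5.08e-05).

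P4HA1, the other main alpha subunit, had 7.81, 7.57 and 7.49 on scramble untreated arrays and 7.82, 7.90 and 7.89 with UV-PAPC, and 7.63, 7.72 and 7.57 against 8.02, 7.90 and 7.87 with OLR1 siRNA. It rose 1.22-fold with OLR1 siRNA (0.29, SE 0.08, adjusted p = 0.046). With scramble siRNA it was at 0.25 (SE 0.08, adjusted p = 0.0859), and averaged over both siRNAs it rose by 0.27 (SE 0.06, adjusted p = 0.00446). PLOD2, a collagen lysyl hydroxylase, was at 0.14 and 0.20 and the disulfide-forming oxidase ERO1A at -0.20 and -0.03, none past the threshold.

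LOX, the collagen-crosslinking lysyl oxidase, was among the 5 dimmest members and had 5.74, 5.50 and 5.77 on scramble untreated and 5.75, 6.24 and 5.69 on scramble UV-PAPC arrays. With OLR1 siRNA it had 5.15, 5.38 and 5.15 untreated and 5.40, 5.06 and 5.12 with UV-PAPC. The siRNA groups were apart and the treatment groups overlapped. It fell with OLR1 siRNA in untreated cells (-0.44, SE 0.13, adjusted p = 0.0448) and in treated cells (-0.70, SE 0.13, adjusted p = 0.00285). Of all genes 2.67% and 3.46% rose with UV-PAPC under scramble and OLR1 siRNA. Of 14 measured genes in a separate list of other collagen modification and folding genes, 3 rose and 0 fell with UV-PAPC under each siRNA. They were the collagen chaperone SERPINH1, also a heat shock gene (0.96 and 0.82), and the lysyl hydroxylases PLOD1 (0.26 and 0.34) and PLOD3 (0.26 and 0.31).

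Among the genes of glucose uptake and the first step of glycolysis, those that changed with UV-PAPC under scramble siRNA fell. SLC2A1, the main glucose transporter of epithelial cells (GLUT1), had 10.86, 10.81 and 10.85 on scramble untreated arrays and 10.51, 10.64 and 10.39 with UV-PAPC. With OLR1 siRNA it had 10.82, 10.80 and 10.81 untreated and 10.64, 10.67 and 10.75 with UV-PAPC. Treated arrays were below untreated ones in both cases. SLC2A1 fell 1.25-fold with scramble siRNA (-0.33, SE 0.07, adjusted p = 0.0081), and with OLR1 siRNA its difference of -0.12 (SE 0.07, adjusted p = 0.391) did not pass.

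HK2, the inducible hexokinase that traps glucose in the cell, had 8.69, 8.61 and 8.70 on scramble untreated arrays and 8.01, 8.17 and 8.10 with UV-PAPC. Under OLR1 siRNA it read 8.89, 8.70 and 8.50 untreated and 8.44, 8.27 and 8.35 with UV-PAPC. The groups were apart under both siRNAs, with lower values in treated cells. HK2 fell 1.49-fold with scramble siRNA (-0.57, SE 0.09, adjusted p = 0.000654) and 1.27-fold with OLR1 siRNA (-0.35, SE 0.09, adjusted p = 0.0265). HK1, the constitutive hexokinase, fell with OLR1 siRNA in untreated cells, from a mean of 7.60 ± 0.02 (SD) to 7.33 ± 0.11 (-0.27, SE 0.07, adjusted p = 0.0274), and its UV-PAPC effects were -0.04 and 0.008.

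SLC2A3, the high-affinity transporter GLUT3, had 6.61, 6.58 and 6.57 on scramble untreated arrays and 6.69, 6.77 and 6.57 with UV-PAPC, and 6.19, 5.87 and 6.16 against 6.55, 6.27 and 6.42 with OLR1 siRNA. It fell 1.43-fold with OLR1 siRNA in untreated cells (-0.52, SE 0.09, adjusted p = 0.0018) and rose 1.27-fold with UV-PAPC under OLR1 siRNA (0.34, SE 0.09, adjusted p = 0.0335). Both comparisons use the OLR1 siRNA untreated arrays, its lowest group. Its near-identical paralog SLC2A14 can share probe signal, so its value is uncertain to that extent. PFKFB3, which makes the activator of phosphofructokinase, rose with UV-PAPC in the average over siRNAs (0.20, SE 0.05, adjusted p = 0.0135) and was higher with OLR1 siRNA in treated cells (0.25, SE 0.07, adjusted p = 0.0338). The phosphofructokinase subunits PFKP and PFKL and the isoform PFKFB4 passed in no comparison.

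The shared enzymes from GPI to LDHA were read along with the pyruvate dehydrogenase kinase PDK1. None of these 11 genes passed in any of the 6 comparisons in the main fit. For UV-PAPC 7.31% and 6.71% of all genes were called under scramble and OLR1 siRNA, and 0 of 11 is near these shares. For UV-PAPC under OLR1 siRNA and averaged over both siRNAs, 1 passed with an intensity trend, array weights, cyclic loess or brighter genes only. The same held without the third scramble UV-PAPC array. The average also had 1 after repeated quantile normalization. For OLR1 siRNA in treated cells 2 passed with the trend, and 1 with brighter genes only or median centring. Their log2 fold changes with UV-PAPC lay between -0.17 (LDHA) and 0.06 (PGK1) with scramble siRNA and between -0.03 (ALDOC) and 0.23 (PGK1) with OLR1 siRNA. With OLR1 siRNA against scramble they lay between -0.13 (GPI) and 0.12 (ALDOC) in untreated cells and between -0.04 (GPI) and 0.19 (PGK1) in treated cells. The outermost limits of the 95% CIs over the 11 genes were -0.36 and 0.38 across these 4 comparisons, so larger shifts lay outside the interval of every one of them. With OLR1 siRNA 10 of the 11 were above 0 in treated cells (median 0.09, 4 with groups apart) and 8 in untreated cells. The median of all brighter genes in treated cells was 0.05. With UV-PAPC 9 were below 0 under scramble siRNA (median -0.03) and 4 under OLR1 siRNA. Without the third scramble UV-PAPC array the medians of 0.09 and -0.03 became 0.03 and 0.02.

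LDHA, which turns pyruvate into lactate, had 12.02, 11.85 and 11.81 on scramble untreated arrays and 11.73, 11.78 and 11.65 with UV-PAPC, and 11.80, 11.82 and 11.74 against 11.80, 11.79 and 11.71 with OLR1 siRNA. The scramble groups were apart and the OLR1 siRNA groups overlapped. Its difference with scramble siRNA was -0.17 (SE 0.07, 95% CI -0.32 to -0.03, adjusted p = 0.169). With an intensity trend in the limma prior it passed (adjusted p = 0.0411). PGK1, which makes ATP in the lower part of the pathway, was at 0.23 (SE 0.07, adjusted p = 0.0594) with UV-PAPC under OLR1 siRNA. GAPDH, often used as a reference gene, ranged from 13.57 to 13.75 over the 12 arrays. Processed pseudogenes of GAPDH, ENO1, PGK1, TPI1, LDHA and PKM can share probe signal with them. TPI1 was read by 2 probe sets, which gave UV-PAPC effects of 0.10 and 0.21 under OLR1 siRNA.

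**Figure D4:**
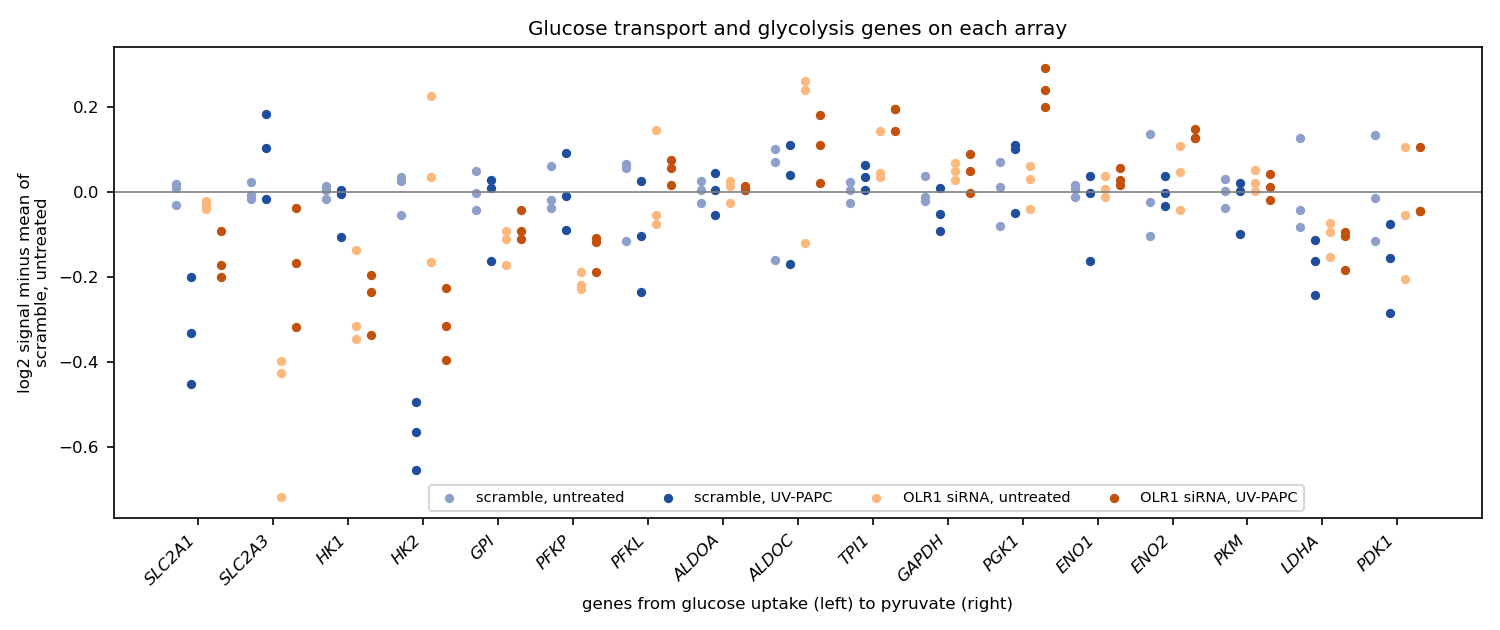
Log2 signal of 17 glucose transport and glycolysis genes on each array, minus the gene's mean in the scramble untreated group; each point is 1 array and colours are groups. HK2 and SLC2A1 fall below 0 with UV-PAPC and SLC2A3 with OLR1 siRNA, while ALDOA, GAPDH and PKM stay close to 0 in all 4 groups.

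The remaining nuclear and mitochondrial members moved both ways. BHLHE40, a HIF-induced transcriptional repressor (DEC1), had 9.55, 9.46 and 9.58 on scramble untreated arrays and 8.77, 8.83 and 8.61 with UV-PAPC, and 9.15, 9.36 and 9.28 against 8.56, 8.71 and 8.45 with OLR1 siRNA. Treated arrays were below untreated arrays in both. It fell 1.73-fold (-0.79, SE 0.08, adjusted p = 2.14e-05) and 1.61-fold (-0.68, SE 0.08, adjusted p = 9.24e-05).

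MXI1, a MYC antagonist, had 6.72, 6.72 and 6.83 on scramble untreated arrays and 6.94, 6.92 and 6.91 with UV-PAPC, and 6.81, 6.96 and 6.83 against 7.29, 7.17 and 7.11 with OLR1 siRNA. It rose 1.25-fold with OLR1 siRNA (0.32, SE 0.07, adjusted p = 0.00788). With scramble siRNA the groups were apart too, at 0.16 (SE 0.07, adjusted p = 0.199). The mitophagy receptor BNIP3 rose with UV-PAPC under OLR1 siRNA from a mean of 9.28 ± 0.03 to 9.52 ± 0.08 (0.24, SE 0.07, adjusted p = 0.0398), and NDRG1, a stress-induced growth regulator, from 8.01 ± 0.05 to 8.27 ± 0.07 (0.27, SE 0.07, adjusted p = 0.0349). With scramble siRNA they were at 0.11 and 0.17. The second mitophagy receptor BNIP3L, the histone demethylase KDM3A, ANKRD37 and the carbonic anhydrase CA12 passed in no comparison.

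In all, 18 of the 40 genes passed in at least 1 comparison, against 25.5% of all genes tested (4700 of 18417), and 22 in none. Of the 40 genes 35 were above the median signal of all genes tested, and the part of signal level in these shares was not tested. The 22 had UV-PAPC differences from -0.22 (BNIP3L) to 0.20 (ANKRD37) with scramble siRNA and from -0.10 (EGLN1) to 0.30 (PFKFB4) with OLR1 siRNA. Their OLR1 siRNA differences ran from -0.28 (PFKFB4) to 0.26 (EGLN1) in untreated cells.

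Whether the response to UV-PAPC differed between the siRNAs was tested as the difference of both effects. None of the 40 genes passed, nor any of the 18417 (0% called by limma), and 1004 genes had an unadjusted p under 0.05, 2 of them members. This comparison is less sensitive than the others. In simulated data it recovered 55% of differences of 0.5, where the other comparisons recovered 91% to 100%. A difference of that size can therefore be missed. STC1 had the second lowest p of all genes (difference 0.61, 95% CI 0.37 to 0.85, unadjusted p = 6.28e-05, adjusted p = 0.52), with a fall under scramble siRNA that was not matched under OLR1 siRNA. ADM had a difference of 0.43 (95% CI 0.16 to 0.70, adjusted p = 0.86). PGF, P4HA2 and EPAS1 had differences of -0.04 (95% CI -0.35 to 0.28), -0.03 (95% CI -0.27 to 0.22) and 0.01 (95% CI -0.18 to 0.20).

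The difference was above 0 in 33 of the 40 genes and in 51.6% of all genes, with medians of 0.08 and 0.005. Brighter genes tended above 0 in general. Among genes above the median signal it was above 0 in 31 of 35 members and in 64.6% of genes, with medians of 0.09 and 0.04. The third scramble UV-PAPC array had the lowest signal of the 12 arrays in 11 of the 40 genes and in 7 of the 11 glycolytic genes, and in 18.1% of all genes. Without that array the difference was above 0 in 29 of the 40 and in 49% of all genes. With cyclic loess and with repeated quantile normalization it was above 0 in 28 of 40 each, and in 51.3% and 47.2% of all genes. The part of this array in the pattern was not tested further.

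Other genes of the pathway, from separate lists, moved both ways as well. These lists too were chosen with earlier results of these data known, so they are not independent support. Of 22 measured hypoxia-induced genes 4 rose and 2 fell with UV-PAPC under scramble siRNA (all genes: 2.67% rising and 4.64% falling). ANGPTL4, an inhibitor of lipoprotein lipase, rose under both siRNAs (0.71 and 0.54), as did the small MAF factor MAFF (0.37 and 0.40). PPP1R3C, a glycogen-targeting phosphatase subunit (0.54), and the mTORC1 inhibitor DDIT4 (0.47) rose with scramble siRNA. PDGFB (-0.55 and -0.66) and IGFBP3 (-0.68 and -0.46) fell under both. Under OLR1 siRNA the counts were 2 and 2 (all genes: 3.46% rising and 3.25% falling). Averaged over both siRNAs they were 5, with GBE1 (0.17) added, and 2 (all genes: 5.95% rising and 8.03% falling).

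In 31 measured other genes of glycolysis and pyruvate handling 0 rose and 2 fell with UV-PAPC under each siRNA. These were the pyruvate dehydrogenase phosphatase PDP1 (-0.61 and -0.82) and the phosphoglucomutase PGM2 (-0.22 and -0.28). Of all genes 4.64% and 3.25% fell under scramble and OLR1 siRNA. Averaged over both siRNAs ENO3 rose (0.19), and PFKFB2 (-0.26) and TIGAR (-0.25) fell along with PDP1 and PGM2. There 5.95% of all genes rose and 8.03% fell. With OLR1 siRNA 4 of the 31 rose in untreated cells: MPC1, a subunit of the mitochondrial pyruvate carrier (0.39), GPD2 (0.37), PDP1 (0.37) and pyruvate carboxylase PC (0.35). MPC1 (0.37) and GPD2 (0.46) also rose in treated cells. Of all genes 5.29% rose in untreated and 7.94% in treated cells. Of the other hypoxia-induced genes AK4, a mitochondrial adenylate kinase, fell in untreated cells (-0.39), and in treated cells DDIT4 (-0.46) and ANGPTL4 (-0.39) fell and INSIG2 (0.32) and ZNF395 (0.30) rose. LOXL1, a relative of LOX, fell in treated cells (-0.28). Over the 4 lists together, 79 genes measured of 85, 6 rose or fell in untreated cells and 8 in treated cells with OLR1 siRNA. Of all genes 9.71% and 12.5% were called there, and the 6 and 8 are not above these shares.

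Several calls lay near the threshold and changed when 1 array was left out. The rise of P4HA1 under OLR1 siRNA was lost without any 1 array other than the first or the third scramble untreated array (0.24 to 0.33, adjusted p up to 0.172). NDRG1 was lost without any 1 of the 6 OLR1 siRNA arrays (0.23 to 0.30, adjusted p up to 0.132). BNIP3 was lost without any OLR1 untreated array, the first or second OLR1 UV-PAPC array or the second scramble untreated array (0.20 to 0.26, adjusted p up to 0.142). The fall of HK2 under OLR1 siRNA was lost without the first or second OLR1 untreated or the second or the third OLR1 UV-PAPC array (-0.34 to -0.25, adjusted p up to 0.135). SLC2A3 was lost there without the second OLR1 untreated or the first or the third OLR1 UV-PAPC array (0.24 to 0.34, adjusted p up to 0.167). The count of 10 under OLR1 siRNA was therefore 6 without the first and 5 without the second OLR1 untreated array, and 6 without the second or the third OLR1 UV-PAPC array. The average UV-PAPC effect on SLC2A3 was lost without any scramble untreated array, the first or second scramble UV-PAPC array, the second OLR1 untreated array or the first or the third OLR1 UV-PAPC array (0.17 to 0.22).

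For OLR1 siRNA in untreated cells, HIF1A was lost without the first or second scramble or any OLR1 siRNA array (-0.24 to -0.20, adjusted p up to 0.101). HK1 was lost without any scramble array or the second or the third OLR1 siRNA array (-0.27 to -0.22, adjusted p up to 0.126), and PGF without any scramble array or the first or second OLR1 siRNA array (-0.39 to -0.25, adjusted p up to 0.176). LOX was lost without the first or the third array of either untreated group or the third OLR1 UV-PAPC array (-0.44 to -0.39, adjusted p up to 0.152). In treated cells PGF was lost without the first scramble or the third OLR1 siRNA array (-0.33 and -0.34). MXI1 was lost without the third scramble or first OLR1 siRNA array (0.26 and 0.22), and PFKFB3 without the first or the third scramble or the third OLR1 siRNA array (0.17 to 0.24).

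Some of these calls were also lost under another scaling or fit. Median centring ended those of P4HA1 (0.27), BNIP3 (0.23) and NDRG1 (0.26) under OLR1 siRNA, of SLC2A3 in the average (0.20), and of HK1 (-0.23) and LOX (-0.40) in untreated cells. Repeated quantile normalization ended those of P4HA1 (0.27), BNIP3 (0.21), LOX (-0.40) and of PGF in untreated cells (-0.33), and cyclic loess those of BNIP3 (0.22) and LOX (-0.41). With the 6 arrays of the comparison alone, HK2, SLC2A3, P4HA1, BNIP3 and NDRG1 under OLR1 siRNA and PFKFB3 in treated cells did not pass, at adjusted p from 0.0505 (P4HA1) to 0.0942 (SLC2A3).

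Other genes passed when an array was left out. ADM was lower with OLR1 siRNA in treated cells without the third scramble UV-PAPC array (-0.27, adjusted p = 0.0353). P4HA1 rose under scramble siRNA without the first scramble untreated array (0.34, adjusted p = 0.0195), and PFKFB3 rose under OLR1 siRNA without the first OLR1 UV-PAPC array (0.30, adjusted p = 0.0439). The average UV-PAPC effect on VEGFA passed without the second OLR1 untreated array (-0.17, adjusted p = 0.0478). With OLR1 siRNA in treated cells, SLC2A1 passed without the second scramble UV-PAPC array (0.24), SLC2A3 without the second OLR1 untreated array (-0.26), HK1 without the first (-0.22) and HK2 without the first or the third OLR1 untreated array (0.26). In untreated cells BHLHE40 passed without the third scramble or second OLR1 siRNA UV-PAPC array (-0.27). Where the array left out belongs to neither group compared, the value is the same and the estimate of the spread differs.

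The labelled cell type was checked against markers. Of 15 epithelial and sebocyte genes, KRT8 (12.40 to 12.54), EPCAM (11.46 to 11.86) and KRT7 (11.03 to 11.39) were high on every array. KRT14 (5.94 to 6.50) and PLIN2 (5.85 to 6.95) were not, and AWAT2, a wax synthase of sebocytes, was low (3.78 to 4.19). Among markers of other cell types VIM (3.83 to 4.12), PTPRC (3.12 to 3.47), PECAM1 (3.96 to 4.15) and MLANA (3.26 to 3.65) were low. CD68 (9.21 to 9.92), CDH5 (7.79 to 8.67), MITF (8.07 to 8.66) and the fibroblast gene COL1A1 (6.98 to 7.26) were not low. SOX10 (6.18 to 6.66) and CLDN5 (6.04 to 6.40) read near KRT14.

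No fibroblast gene of the 10 measured passed in any comparison. PPARG fell (-0.47 and -0.35) and PLIN2 rose (0.58 and 0.67) with UV-PAPC under both siRNAs, and MITF fell with scramble siRNA (-0.23). CDH5 (0.65 and 0.50), CD68 (0.40 and 0.44) and MITF (0.26 and 0.43) were higher with OLR1 siRNA in untreated and treated cells, each the only gene of its list to pass there. In treated cells 6 of 7 endothelial, 4 of 7 leukocyte and 5 of 6 melanocyte genes had differences below 0, with medians of -0.06, -0.08 and -0.23. In untreated cells 5 of 7, 3 of 7 and 2 of 6 were below 0, with medians of -0.04, 0.006 and 0.02. The part of these genes in the results above was not tested. Over the 12 arrays Pearson's r across genes, which are not independent replicates, was 0.996 to 0.998 within a group and 0.988 to 0.995 between groups, and array medians were 5.73 to 5.83.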

How the data were processed

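The deposited values are log2 signals per probe set, which the authors computed by RMA (Affymetrix Expression Console 1.3.1.187, both named in the submitters' processing notes). Its settings are not stated in these sources, and RMA tends to shrink large fold changes. The platform annotation, which can be old, gave 1 symbol to 19460 of the 33297 entries, several to 1754 and none to 12083. Where a gene had several probe sets, the one brightest on average stood for it, which left 18417 genes.

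All 12 arrays were fitted with 4 group means in limma 3.58.1 (R 4.3.3; default eBayes, two-sided, Benjamini-Hochberg over all genes of a comparison, threshold 0.05), for 6 comparisons. The 40 measured genes, the lists and the markers were chosen with earlier results of these data known. Per-array values are printed for the 12 genes with the lowest adjusted p in any comparison and for HIF1A, EPAS1, VEGFA, SLC2A1 and LDHA. The fit was tested on simulated data. The labels do not say that replicates were separate cultures. The p-values therefore reflect the variation among these samples alone, and that variation may be technical. With so few arrays per group, precision is limited. The plots were made with matplotlib 3.10.9 (Python 3.11.15).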

Additional observations from a re-analysis of the deposited data

How the results depend on the processing

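The alternatives were another prior (trend, robust), array weights, brighter genes only, probe set means, median centring, repeated quantile normalization, cyclic loess, the 6 arrays of a comparison, a replicate block and each array left out. The number of the 40 genes called stayed within 1.5 times of the main count in all of them except as follows. UV-PAPC under OLR1 siRNA (10 genes) gave 6 with its 6 arrays alone. OLR1 siRNA in treated cells (7 genes, 2 higher and 5 lower) gave 13 with the trend (6 and 7), 11 with array weights, 11 among brighter genes and 11 with repeated quantile normalization (2 and 9), and median centring gave 4 and 5. With each array left out the counts ranged from 7 to 8 and from 5 to 10 for UV-PAPC under scramble and OLR1 siRNA, 12 to 15 for the average, and 6 to 11 and 5 to 9 for OLR1 siRNA in untreated and treated cells. For the difference of effects every alternative gave 0. No direction of a called gene reversed. Replicate numbers did not pair the samples: deviations of same-numbered arrays correlated at -0.22 to 0.26, and 3 of 12 arrays correlated best with their own number. With the replicate block the counts were 7, 9, 13, 9, 7 and 0. The block ended the calls of BNIP3 for UV-PAPC under OLR1 siRNA (adjusted p = 0.053) and of LOX for OLR1 siRNA in untreated cells (adjusted p = 0.0589), where 1 gene rose and 8 fell. The cause of these shifts was not tested. In the dimmer genes, LOX, EGLN3, PFKFB4, CA12 and ANKRD37, background limits the size of a change that can be seen.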
